A study of Mus musculus with 5 samples.

Results

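*Fos* and *Fosb* encode Fos-family subunits of the transcription factor AP-1 and belong to the immediate early genes. They were 2 of the 1355 genes in the deposited list of genes that differed between *Irf8*-OE and control dendritic cells. Both were taken by name from that list. A gene entered the list because the authors had already called it different in these same 5 samples, so both members were chosen by their normalized counts in the contrast described below. Their differences between the groups are therefore a description, without a test.

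The series asked how more IRF8, a transcription factor of dendritic cell development, changed gene expression in cultured dendritic cells. RNA-seq of poly-A selected RNA covered 3 *Irf8*-OE samples and 2 control samples of bone marrow derived dendritic cells (BMDCs). Marrow came from mice 8 weeks of age, labelled male, and was grown in medium that held the dendritic cell growth factor Flt3L at 200 ng/ml and the myeloid growth factor GM-CSF at 5 ng/ml. Non-adherent cells were replated on day 9 and collected on days 15 to 16.

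The *Irf8*-OE mice carried an *Irf8* transgene (*Irf8* CAG-LSL) switched on by Cre from the *Itgax* promoter, which is active in dendritic cells and in part of other myeloid cells. The labels give the controls as wild type, whereas the methods of the study give them as *Irf8* CAG-LSL mice without Cre. All 5 samples carry a label of TNF-α stimulation, whereas the protocol says only that TNF-α at 20 ng/ml could be added, so whether each sequenced culture received it is uncertain. The time between stimulation and RNA extraction is not given in the sources used here, and neither is whether the samples of a group came from separate animals or cultures. The spread between samples may therefore be technical.

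Immediate early genes are transcribed within minutes of a signal, from factors already present in the cell and without new protein synthesis. Serum response factor with its ETS partners and CREB act on their promoters after MAP kinase or cyclic AMP and calcium signals, and their mRNAs are short-lived. Fos-family proteins cannot bind DNA well alone. They pair with Jun-family proteins through a leucine zipper, and the pair binds AP-1 sites in genes of inflammation, matrix remodelling and growth. Handling of tissue and cells is known to raise these mRNAs as well.

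The sequences just upstream of both genes are shown first because the choice of the members did not use them. The letters TGACG, marked in both, were picked after these sequences had been read. They are taken from RefSeq (GRCm38.p6) and run 5′ to 3′ from 210 to 11 bases upstream of the annotated start, on the strand of the gene. The stretch for *Fos* is chr12:85473680-85473879 on the plus strand and the stretch for *Fosb* is chr7:19310056-19310255 on the minus strand. Capitals mark the letters TATAAA, the TATA box, and TGACG, the core of the cyclic AMP response element.
Fos: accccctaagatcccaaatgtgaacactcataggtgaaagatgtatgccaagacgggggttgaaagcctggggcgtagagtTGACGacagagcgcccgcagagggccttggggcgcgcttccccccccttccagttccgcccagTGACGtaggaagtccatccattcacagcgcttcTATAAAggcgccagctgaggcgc
Fosb: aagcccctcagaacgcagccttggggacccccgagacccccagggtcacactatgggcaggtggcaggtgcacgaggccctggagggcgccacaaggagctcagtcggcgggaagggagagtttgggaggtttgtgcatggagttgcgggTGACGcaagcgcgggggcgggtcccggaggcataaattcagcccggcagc

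The TGACG core lay at nearly the same distance from the start in both genes, from 66 to 62 bases upstream in *Fos* and from 60 to 56 bases upstream in *Fosb*. *Fos* held a further copy from 129 to 125 bases upstream. Motifs were searched on both strands of a window that ran from 250 bases before the start to 50 bases after it. The core was picked after these sequences had been read. It was present in a window of 23.0% of the 27025 mouse genes in the table, and of 21.8% of the 501 genes called higher in *Irf8*-OE that had a window. Of the 23 listed AP-1, immediate early and MAP kinase feedback genes described below, 14 had a window, and 13 of these 14 held the core. Both members are among the 13, and their own hits follow from how the core was picked. Some early genes had several windows, and a gene was counted if any of them held the core. Counted by window, 85.0% of the 20 windows of these early genes held it, against 20.8% of all 32851 windows.

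Beside the members, the early genes with the largest rise among the 14 with a window that had the core upstream were *Nr4a1*, *Cyr61* (named *Ccn1* in the promoter table), *Dusp1* and *Nr4a2*. Their cores are shown with 8 bases on each side, in capitals and read on the strand on which the letters are TGACG. These stretches are chr15:101266798-101266818 on the minus strand for *Nr4a1*, chr3:145650031-145650051 on the plus strand for *Cyr61*, chr17:26508600-26508620 on the plus strand for *Dusp1* and chr2:57124102-57124122 on the minus strand for *Nr4a2*, all in GRCm38.p6.
Nr4a1: gcgctccgTGACGcatggaga
Cyr61: tgttgcagTGACGtagctctg
Dusp1: ccgggcggTGACGtcacccgc
Nr4a2: ggggccgcTGACGcgcttggc

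In *Dusp1* the core is part of the full palindrome TGACGTCA, which 1.79% of all windows held and which was in neither member's window. The TATA box lay from 33 to 28 bases upstream of the start of *Fos* and was not in the window of *Fosb*. TATAAA was found in 13.6% of all windows. The AP-1 site TGANTCA (7.81% of all windows), the CArG box bound by serum response factor (1.63%), the interferon-stimulated response element GAAANNGAAA (3.44%) and the ETS-IRF composite element GGAANNGAAA (2.72%) were not in the windows of either gene. Sequence outside the windows was not searched, so these absences do not show that either gene lacks such an element further upstream. Both windows held the ETS core GGAA, as did 96.0% of all windows. Of the motifs fixed before the sequences were read, it was the only one in both members. A match of letters is a description of the sequence and not a measured binding site.

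*Fos* (ENSMUSG00000021250) lies on chromosome 12 of GRCm38, from 85473890 to 85477273 on the plus strand. *Fosb* (ENSMUSG00000003545) lies on chromosome 7, from 19302696 to 19310051 on the minus strand. No other annotated gene overlaps either of them, and each has 4 exons in its longest protein-coding transcript. The longest stretch that any transcript of *Fos* shares with any transcript of *Fosb* is 17 bases.

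Some facts of the samples stand beside every result below. The groups differed in sex-linked genes in spite of the label male. *Xist*, the RNA of the inactive X chromosome, had 10772 to 13476 normalized counts in *Irf8*-OE and at most 1.12 in the controls, while *Ddx3y*, *Kdm5d*, *Uty* and *Eif2s3y*, genes of the Y chromosome, were at 0 in *Irf8*-OE and between 484 and 1385 in the controls. Sex and genotype therefore cannot be told apart here. The normalized counts are reads divided by 1 size factor per sample, and the listed genes held 646123 to 1062127 reads per sample, a part of each library only. *Irf8* itself had 7141, 6519 and 6021 normalized counts in *Irf8*-OE and 2835 and 2747 in the controls.

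*Fos* was high in every *Irf8*-OE sample. The controls had 503.5 and 496.1 normalized counts of *Fos*, from 448 and 517 reads. The *Irf8*-OE samples had 5886, 5615 and 6166 normalized counts, from 6141, 6014 and 6139 reads. The lowest *Irf8*-OE sample was 11.2-fold above the highest control, so the groups did not overlap, as was the case for 100% of the listed genes. The *Irf8*-OE mean of 5889 ± 275 normalized counts (SD, n = 3) was 11.8-fold the control mean of 499.8 ± 5.21 (SD, n = 2). The log2 fold change on the scale log2(normalized counts + 1) was 3.55 with a standard error of 0.06 from limma.

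*Fosb* started lower and rose further on the log scale. The controls had 176.4 and 134.3 normalized counts of *Fosb*, from 157 and 140 reads. The *Irf8*-OE samples had 3604, 3226 and 3243 normalized counts, from 3760, 3455 and 3229 reads. The lowest *Irf8*-OE sample was 18.3-fold above the highest control. The *Irf8*-OE mean of 3358 ± 214 normalized counts (SD, n = 3) was 21.6-fold the control mean of 155 ± 29.8 (SD, n = 2), and the log2 fold change was 4.44 with a standard error of 0.12. Both members were called higher at the thresholds used here, where 99.1% of all listed genes were called in either direction and 58.1% were called higher, so the calls themselves set neither gene apart.

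**Figure D1:**
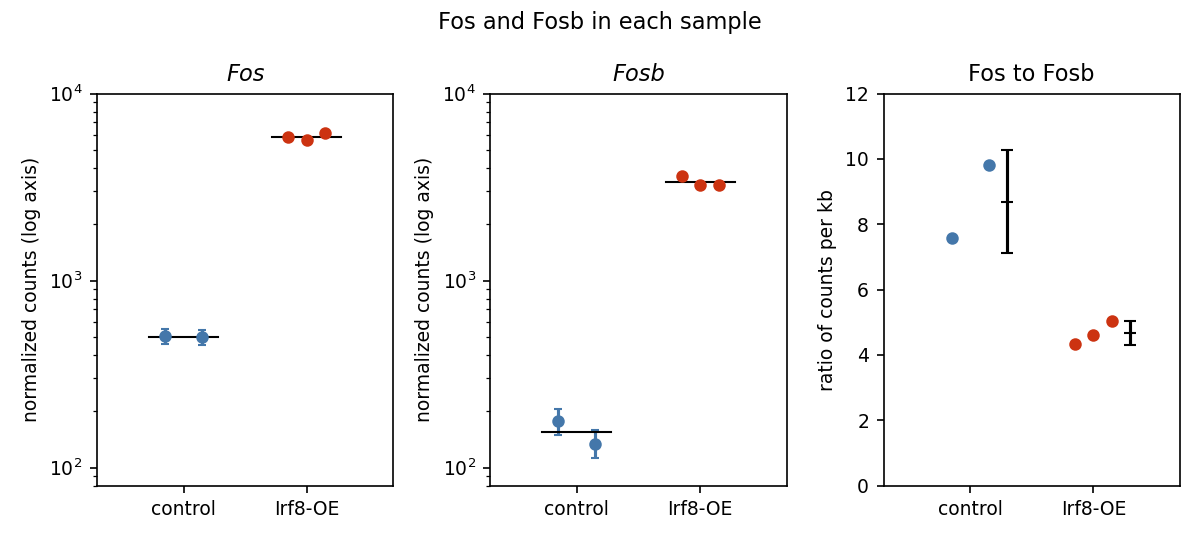
The left and middle panels plot normalized counts of *Fos* and *Fosb* in each sample on a log axis, with exact 95% Poisson intervals as bars (counting error only; within the size of the point in *Irf8*-OE) and the group mean as a line. The right panel plots the ratio of *Fos* to *Fosb* per gene length in each sample, with the mean and SD of each group in black. The 3 *Irf8*-OE samples lie between 5615 and 6166 for *Fos* and between 3226 and 3604 for *Fosb*, far above both controls, and their ratios lie between 4.34 and 5.05, below those of both controls.

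The spread between replicates was small beside these differences, and it differed between the members. In the *Irf8*-OE samples the coefficient of variation was 4.68% for *Fos* and 6.36% for *Fosb*, where counting reads alone would give 1.28% and 1.69%. The 100 listed genes nearest in mean level had a median of 6.49% around *Fos* and 6.29% around *Fosb*. The highest *Irf8*-OE sample was the third for *Fos* and the first for *Fosb*, and the second was lowest for both.

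The controls agreed more closely for *Fos* than for *Fosb*. They differed by 1.47% of their mean for *Fos*, and 15.0% of the 100 genes nearest in control level differed by less. For *Fosb* they differed by 27.1%, and 87.0% of its neighbours differed by less. The exact 95% Poisson intervals of the *Fosb* controls, 149.9 to 206.3 and 113.0 to 158.5 normalized counts, overlapped, and those intervals cover counting error only.

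By abundance the members moved into the top of the list. Ranked by normalized counts among the 1355 listed genes, *Fos* stood at places 232 and 233 in the controls and at 19, 20 and 17 in the *Irf8*-OE samples. *Fosb* stood at places 419 and 481 in the controls and at 36, 45 and 46 in *Irf8*-OE. Of all listed normalized counts, *Fos* made up 0.872% to 0.950% in *Irf8*-OE, against 0.049% and 0.050% in the controls. *Fosb* made up 0.500% to 0.565%, against 0.013% and 0.017%. The listed total itself was 638352 to 648930 normalized counts in *Irf8*-OE, against 1013265 and 1019228 in the controls. Part of the rise in share comes from that lower total, and the ranks also depend on the other genes. By the difference of the group means, 5389 normalized counts for *Fos* and 3202 for *Fosb*, the genes ranked 8 and 17.

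By log2 fold change *Fosb* ranked 37 and *Fos* ranked 80 among the 1355 genes. Of the 36 genes above *Fosb*, 34 had a mean of at most 20 normalized counts in the controls, where a fold rests on few reads. Among the 553 listed genes with a control mean of at least 100 normalized counts, *Fosb* ranked 2, just under *Asgr2*, a subunit of the asialoglycoprotein receptor, at 4.47. *Fos* ranked 5 of these 553 genes. The median log2 fold change was 1.14 over all listed genes and 1.83 over the 787 genes called higher.

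**Figure D2:**
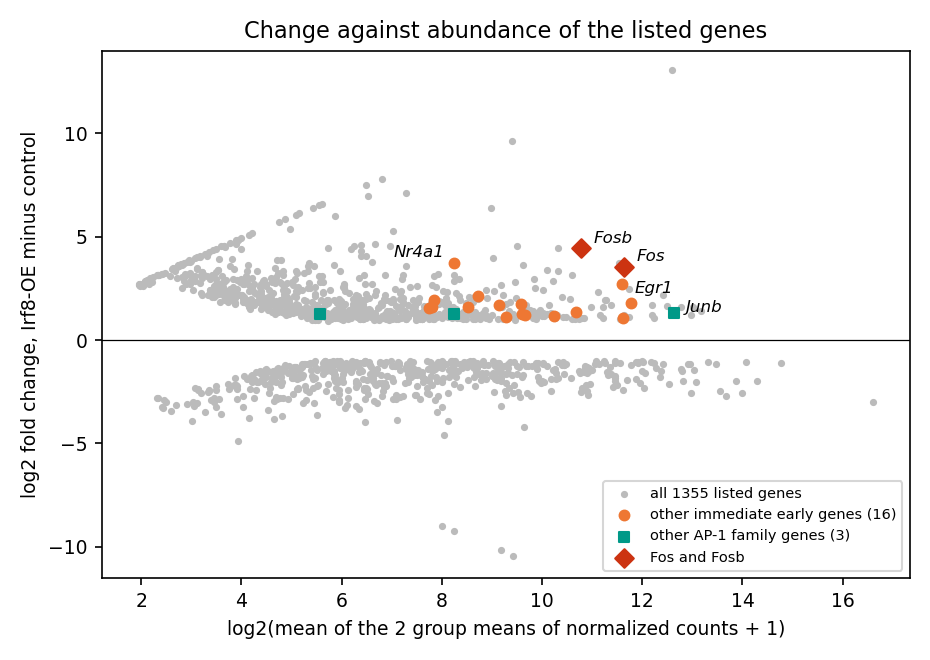
Each point is 1 of the 1355 listed genes, with the mean level of both groups (log2 of normalized counts + 1) on the x axis and the log2 fold change of *Irf8*-OE minus control on the y axis. *Fosb* at 4.44 and *Fos* at 3.55 stand above nearly all listed genes of like abundance, and *Egr1* and *Nr4a1* are the other immediate early genes nearest to them. The empty band around 0 is there because genes with smaller differences are not in the list.

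Among the 72 listed genes annotated as transcription factors in the deposited table, *Fosb* ranked 2 and *Fos* ranked 4 by log2 fold change. The gene above *Fosb*, the homeobox gene *Gbx2*, was at 0 in both controls and had a mean of 27.7 normalized counts in *Irf8*-OE, and the gene between the members was *Nr4a1*. Per kilobase of gene length, the mean level of *Fos* was 213 ± 2.22 (SD, n = 2) in the controls and 2504 ± 117 (SD, n = 3) in *Irf8*-OE. Among the 72 factors this took *Fos* from rank 4 to rank 2 by level per kilobase. *Fosb* went from 24.9 ± 4.77 to 537.8 ± 34.2 normalized counts per kilobase, from rank 26 to rank 5.

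*Fos* remained the more abundant member, with a smaller lead in *Irf8*-OE. Per gene length, the controls had 7.57 and 9.80 times as much *Fos* as *Fosb*, a mean of 8.69 ± 1.58 (SD, n = 2). The *Irf8*-OE samples had ratios of 4.34, 4.62 and 5.05, a mean of 4.67 ± 0.36 (SD, n = 3). The ratios of the groups did not overlap. The gene length of *Fosb*, 6243 bases, counts the exons of all its transcripts, and its longest protein-coding transcript has 3782 bases (2352 and 2108 bases for *Fos*), so the size of the ratio depends on the length used.

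The AP-1 family list held 20 genes for Fos, Jun, ATF, BATF and Maf proteins, 5 of which were listed. All 5 were called higher, where 58.1% of all listed genes were called higher. Their median log2 fold change was 1.30, below the median of 1.83 over the genes called higher. The median over all listed genes, higher and lower together, was 1.14. Genes of the family that are not in the list, among them *Jun*, *Jund*, *Fosl1*, *Fosl2*, *Atf3* and *Batf3*, are not analysed here.

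*Junb*, a Jun-family partner of Fos proteins that activates transcription less strongly than Jun, was the only partner of that family in the list. It had 3749 and 3547 normalized counts in the controls and 9684, 8633 and 8669.5 in *Irf8*-OE. All 3 *Irf8*-OE samples were above both controls, where the groups did not overlap for 100% of the listed genes. The log2 fold change was 1.30 (standard error 0.07). Per kilobase *Junb* was above *Fos* in both groups, at 1585 against 213 in the controls and 3909 against 2504 in *Irf8*-OE.

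The remaining family genes, *Maff* and *Batf2*, had smaller differences than the members. *Maff*, a small Maf protein without an activation domain, had a mean of 425 normalized counts in *Irf8*-OE against 176 in controls, and its log2 fold change was 1.26. *Batf2*, a BATF-family protein that pairs with Jun proteins, had a mean of 65.0 in *Irf8*-OE against 28.4 in controls and a log2 fold change of 1.28 with a standard error of 0.40. After quantile normalization *Batf2* was at 0.81 and no longer called.

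Beside the AP-1 family, a list of 51 other immediate early genes had 16 members among the listed genes. All 16 were called higher, with log2 fold changes of 1.09 to 3.71 and a median of 1.59, and 16 were called after quantile normalization too. The share called higher over all listed genes was 58.1%, and the median log2 fold change of the genes called higher was 1.83. No immediate early gene of the list was called lower, and the members of that list which are not in the deposited table are not analysed here.

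Of the transcription factors in this list, *Nr4a1*, an orphan nuclear receptor induced by many signals, was nearest to the members in change. It had 29.2 and 59.5 normalized counts in the controls and 613, 513 and 553 in *Irf8*-OE, a log2 fold change of 3.71 (standard error 0.27). *Egr1*, a zinc finger factor driven by serum response factor, had 891 and 732 normalized counts in the controls against 5205, 5182 and 5666 in *Irf8*-OE. Its log2 fold change was 2.72, and its *Irf8*-OE samples were in the same order as those of *Fos*, with the third highest and the second lowest. *Egr3* and *Nr4a2*, of the same families, had log2 fold changes of 2.12 and 1.57, and *Csrnp1*, a nuclear protein induced by AXIN1, had 1.21.

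Genes that limit the early response were also in the list. *Zfp36*, which encodes tristetraprolin and speeds the decay of AU-rich mRNAs, *Fos* among its known targets, had 5401 ± 62.3 normalized counts in *Irf8*-OE (SD, n = 3) against 1580.0 ± 88.8 (SD, n = 2), and its log2 fold change was 1.77. *Dusp1*, a phosphatase that switches off MAP kinases, had a log2 fold change of 1.58 (means of 3574 in *Irf8*-OE and 1191 in controls), and *Errfi1*, an inhibitor of the EGF receptor, had 1.10. Those were the listed genes of 17 MAP kinase feedback genes, and both were called higher, where 58.1% of all listed genes were called higher. *Btg2*, an antiproliferative gene, had 1.15, *Nfkbiz*, an atypical IκB protein, 1.68, and *Rgs1*, a regulator of G-protein signalling, 1.09.

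The rest of the immediate early genes had smaller rises than the members. *Ctgf* and *Cyr61*, secreted matricellular proteins, had log2 fold changes of 1.94 and 1.60. The pseudokinase gene *Trib1* had 1.76, the kinase genes *Sik1* and *Plk3* had 1.58 and 1.13, and *Ier2* had 1.38. *Ptgs2*, which encodes the prostaglandin enzyme COX-2, had 1.27. Among the 23 listed early genes (AP-1 family, other immediate early and MAP kinase feedback), *Fosb* ranked 1 and *Fos* ranked 3 by log2 fold change.

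**Figure D3:**
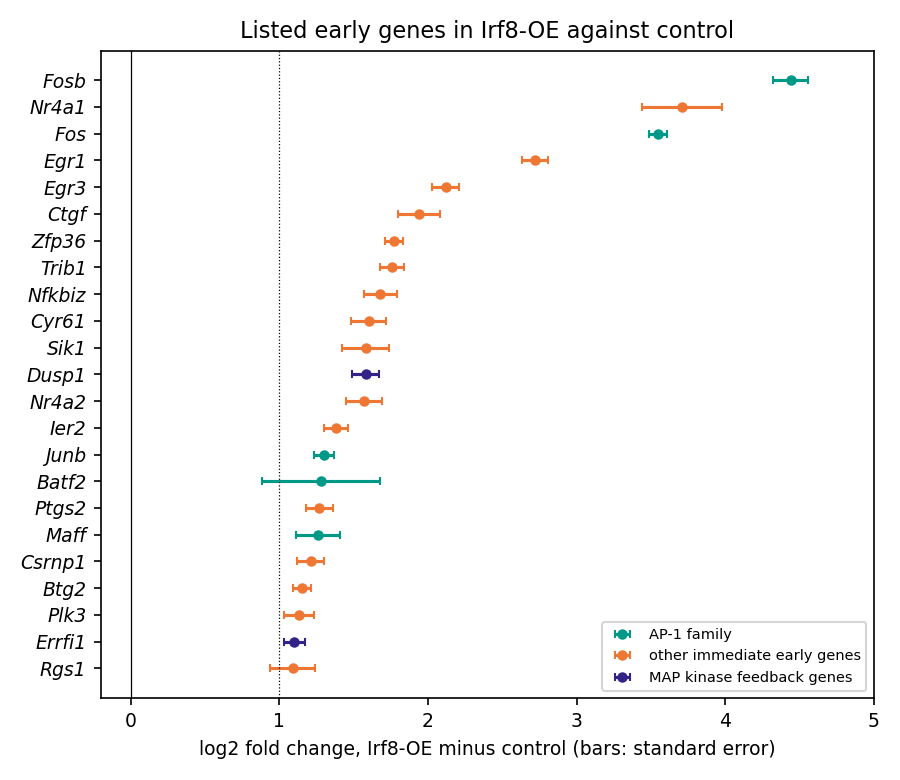
The x axis gives the log2 fold change of *Irf8*-OE minus control for the 23 listed early genes, with the standard error from limma as bars and colours for the 3 lists. The dotted line marks the threshold of 1. *Fosb*, *Nr4a1* and *Fos* lie above 3.5, *Egr1* and *Egr3* lie between 2 and 3, and the other genes lie between 1 and 2.

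By level per kilobase the order was another. *Junb* was highest of the 23 early genes in both groups. *Fos* moved from rank 7 in the controls to rank 2 in *Irf8*-OE, and *Fosb* from rank 20 to rank 9. In *Irf8*-OE, *Fosb* at 537.8 normalized counts per kilobase lay between *Btg2* at 607 and *Plk3* at 336, whereas in the controls, at 24.9, it lay between *Nr4a2* at 26.4 and *Sik1* at 24.7. Those control levels of *Fosb*, *Nr4a2* and *Sik1* do not differ beyond the SD of *Fosb*.

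**Figure D4:**
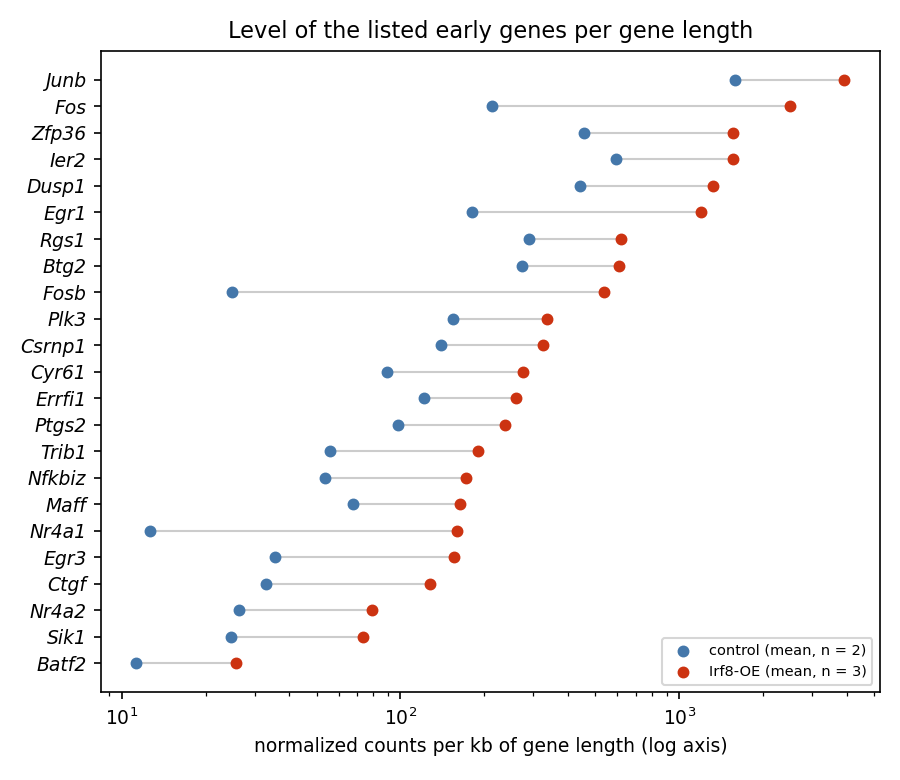
The x axis, which is a log axis, gives the mean normalized counts per kilobase of gene length in the controls (blue, n = 2) and in *Irf8*-OE (red, n = 3) for the 23 listed early genes, ordered by their level in *Irf8*-OE. The grey lines join the 2 means of a gene and are longest for *Fosb*, *Nr4a1* and *Fos*. *Fos* went from 213 to 2504 and ended next to *Junb* at 3909.

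The order of the *Irf8*-OE samples was not shared by all early genes. Of the 16 other immediate early genes, 8 were highest in the first *Irf8*-OE sample, 0 in the second and 8 in the third. Over the 787 genes called higher these shares were 39.6%, 25.4% and 34.9%.

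The lists used here of genes upstream and downstream of AP-1 had few members in the deposited list. They do not hold every gene that acts there. Of 40 kinases and factors that act upstream of immediate early genes, 1 was listed, the p38 family kinase gene *Mapk11*, at 34.5, 38.3 and 36.2 normalized counts in *Irf8*-OE against 5.62 and 15.4 in controls (log2 fold change 1.84, and 0.95 and not called after quantile normalization). Of 22 genes known as AP-1 targets, 2 were listed and they went in opposite directions. *Timp1*, an inhibitor of matrix metalloproteinases, had a log2 fold change of 1.14, and *Mmp9*, a gelatinase, had -1.97.

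TNF-α stimulation is on the label of each sample, with the uncertainty given above, and of 22 early TNF and NF-kB response genes 3 were listed. The neutrophil chemokine genes *Cxcl2* and *Cxcl1* were called higher, with log2 fold changes of 2.31 and 2.16. The cytokine gene *Il6* was called lower, at -1.10. Of 21 heat shock genes, which rise in stressed cells, 4 were listed and called higher, where 58.1% of all listed genes were called higher. Their median log2 fold change was 1.29, below the median of 1.83 over the genes called higher. *Hspa1b*, an inducible HSP70, had means of 189 normalized counts in *Irf8*-OE and 74.8 in controls (1.33), and *Cryab*, a small heat shock protein, had 97.1 in *Irf8*-OE and 28.6 in controls (1.75). *Hspb1* and *Hspa12a* had 1.16 and 1.26 and were not called after quantile normalization, at 0.82 and 0.55. The part of cell stress in the levels of the members was not tested.

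Markers of several cell types were in the list as well. Every listed gene is there because it differed between the groups. Of all listed genes, 99.1% were called in either direction and 58.1% were called higher. In bulk RNA, fewer cells of a type and less RNA per cell cannot be told apart. Of 15 macrophage and monocyte markers 8 were listed, and all 8 were higher. Their summed normalized counts were 25916 to 31011 in *Irf8*-OE, against 5559 to 5616 in controls. Of 16 stromal markers 10 were listed, 9 higher and 1 lower, and their sum was 12635 to 13721 in *Irf8*-OE against 3796 to 3940 in controls. Of 15 B-lineage markers 7 were listed and higher, with sums of 3523 to 3983 in *Irf8*-OE against 209 to 251 in controls, and the plasma cell genes *Igha* and *Jchain* were at 0 in the first control. Of 14 neutrophil markers 5 were listed, 4 higher and 1 lower, with sums of 2143 to 2275 in *Irf8*-OE against 607 to 697 in controls. The largest part of the *Irf8*-OE sum was *Mpo*, with means of 996 in *Irf8*-OE and 10.8 in controls. The lower gene was *Ly6g*, with means of 9.68 in *Irf8*-OE and 164 in controls.

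The summed levels of 3 marker lists were lower in *Irf8*-OE, and their genes went in both directions, where 58.1% of all listed genes were called higher. Of 15 mast cell and basophil markers 11 were listed, 2 higher and 9 lower, and the sum fell from between 235864 and 240340 in the controls to between 36728 and 40524 in *Irf8*-OE. *Cpa3*, the mast cell carboxypeptidase, accounted for 3.18% to 3.74% of the listed normalized counts in *Irf8*-OE, against 17.3% and 17.6% in the controls. The 2 higher genes were proteases of basophils. *Prss34* had means of 1453 normalized counts in *Irf8*-OE and 118 in controls (log2 fold change 3.64), and *Mcpt8* had 1233 in *Irf8*-OE and 178 in controls (2.79). Of 12 T and NK cell markers 3 were listed, 2 higher and 1 lower, with sums of 374 to 430 in *Irf8*-OE against 1143 to 1248 in controls. Most of that sum was *Gzmb*, a granule protease gene, with means of 375 in *Irf8*-OE and 1189 in controls. Of 23 dendritic cell markers 7 were listed, 5 higher and 2 lower, with sums of 6502 to 7070 in *Irf8*-OE against 11164 to 11891 in controls. Most of that sum was *Cd24a*, a surface protein gene, with means of 3855 in *Irf8*-OE and 10057 in controls. The defining genes *Itgax*, *Flt3*, *Zbtb46*, *Xcr1*, *Clec9a* and *Batf3* are not analysed here. The part of these cell types in the levels of *Fos* and *Fosb* was not tested.

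The listed genes most like the members were found by the Euclidean distance between profiles of log2(normalized counts + 1), each centred on its mean over the 5 samples. Nearest to *Fos* were *Dpf1* (distance 0.133), *Adcy5* (0.145), *Gm15433* (0.254), *Ighm* (0.268) and *Slc13a5* (0.324). Of these, *Ighm* alone, the constant region of IgM, had a control mean above 100 normalized counts, at 189 against 2017 in *Irf8*-OE. *Dpf1* and the pseudogene *Gm15433* were at 0 in both controls, and their means in *Irf8*-OE were 11.3 and 11.9. *Adcy5*, an adenylyl cyclase, had 46.0, 45.7 and 46.2 normalized counts in *Irf8*-OE against 3.37 and 2.88 in controls.

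Nearest to *Fosb* were *Asgr2* (distance 0.211), *Robo3* (0.248), *Ache* (0.264), *Kcnj5* (0.295) and *Igkv3-12* (0.413). *Asgr2* had 114 and 106 normalized counts in the controls and 2557, 2357 and 2412 in *Irf8*-OE, with the first *Irf8*-OE sample highest, as in *Fosb*. *Robo3*, *Ache* and *Kcnj5* had control means of 5.77, 5.21 and 3.69 and *Irf8*-OE values from 93.0 to 171, and *Igkv3-12* was at 0 in both controls. The distance between *Fos* and *Fosb* was 1.012, which made *Fosb* the 103rd nearest gene to *Fos* and *Fos* the 43rd nearest gene to *Fosb*. With 5 samples in separate groups, this likeness mostly ranks genes by their difference between the groups.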

How the data were processed

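Poly-A RNA-seq of 5 BMDC samples was studied in the deposited list of genes that the authors had called different. The submitters' processing notes name fastp, HISAT2 2.0.5, featureCounts 1.5.0-p3, DESeq2 1.20.0, edgeR 3.22.5 and mm10. The deposited signal values are normalized counts that the authors made by dividing reads by 1 size factor per sample. The table's own fold changes, p-values and adjusted p-values were not used. Genes outside the list are not analysed here. Whole reads were recovered for 100.0% of values in each sample (tolerance 0.01 reads), with 1.004 normalized counts per read in the third *Irf8*-OE sample. A floor of 3 reads is 2.80 to 3.37 normalized counts.

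Groups followed the sample labels. The fit used limma 3.58.1 in R 4.3.3, with moderated variances that follow the mean, on log2(normalized counts + 1). A gene was called where its log2 fold change was above 1 in size and its p-value, adjusted by Benjamini-Hochberg, was below 0.05. No p-value is given, because the list holds genes already called. Rank tables used numpy 2.4.6 and intervals scipy 1.17.1. On simulated counts with 200 of 1355 genes changed, limma recovered 98.5% and called 2 of 1155 unchanged genes, edgeR 4.0.16 recovered 100.0% and DESeq2 1.42.0 recovered 99.5%. Alternatives were quantile normalization, edgeR and DESeq2 on recovered reads, a filter of 10 normalized counts, pseudocounts of 0.1 and 10, a replicate block and leaving out each sample. Gene models came from GENCODE vM21 and promoters from RefSeq GRCm38.p6.

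The members and the gene lists were chosen with earlier results of these data known. Named genes are the members, every listed gene of the lists other than markers, *Irf8*, the 5 genes nearest in profile to each member, and of each marker list up to 3 genes. *Gbx2*, *Prss34*, *Mcpt8*, *Ly6g*, the sex-linked genes and the TGACG core were added after values or sequences were seen. An item of the gene lists is not reported here and was left out of the lists and their counts.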

Additional observations from a re-analysis of the deposited data

How the results depend on the processing

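The log2 fold change of *Fos* lay between 3.52 and 3.87 and that of *Fosb* between 4.24 and 4.63 under the 14 alternatives of the fit, and both were called under each of them. Quantile normalization, which moved the median of all listed genes by -0.33, gave 3.87 for *Fos* and 4.49 for *Fosb*, and took the listed genes called from 1343 to 1023, with 499 higher and 524 lower in place of 787 and 556. The other alternatives called 1145 to 1354 listed genes, with 1145 at a pseudocount of 10 and 1238 to 1318 with a sample left out. The 16 other immediate early genes stayed at 16 or 15 called. The AP-1 family stayed at 5 or 4, and 4 were called after quantile normalization and without the second control, the first or the second *Irf8*-OE sample. EdgeR without the third *Irf8*-OE sample, whose step per read is near 1, was added after the data were seen and called 1322 listed genes.

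With the number in the sample titles as a replicate block, *Fos* was at 3.52, *Fosb* at 4.46 and 1319 listed genes were called. With the number in the descriptions they were at 3.55, 4.38 and 1271. The deviations of samples with the same number correlated at 0.027 and 0.027 (titles) and at -0.027 and 0.002 (descriptions) over 1249 genes. The deviations of the 2 controls mirror each other, so these values are not independent. They cannot decide whether the numbers pair the samples.

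The ratio of *Fos* to *Fosb* depended on the gene length. Without division by length its mean was 3.27 in the controls and 1.76 in *Irf8*-OE. With the longest protein-coding transcript, added after the data were seen, it was 5.87 and 3.15. A change of length scales the ratio of every sample alike, so the order of the groups could not change with it. With a sample left out, the means per gene length were 7.57 to 9.80 and 4.48 to 4.83.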
